A study of Mus musculus with 18 samples.

Results

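The glucocorticoid receptor gene *Nr3c1* and 9 genes known to respond to the receptor were followed through podocytes, mesangial cells and endothelial cells of *Cd2ap* mutant and wild type glomeruli. The 10 genes were *Nr3c1*, *Fkbp5*, *Zbtb16*, *Tsc22d3*, *Sgk1*, *Mt1*, *Mt2*, *Pdk4*, *Ddit4* and *Dusp1*, out of 22909 distinct gene symbols on 28856 transcript clusters, the gene-level probe sets of the array. They were found by symbol. Where several clusters carried a symbol the brightest by mean signal across the 18 arrays was to be taken, but each of the 10 had exactly 1 cluster, so measured signal chose none of them. The genes themselves were chosen by symbol with earlier results of these data known, among them the genotype differences of *Fkbp5* and its fellow targets, so those differences are given as a description and a p beside one is no independent evidence.

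The arrays cover 6 groups of 3 biological replicates, all from mice at 5 weeks of age. The mutant mice were *Cd2ap*-/-, homozygous for the germline *Cd2ap* tm1Shaw allele, so that every cell of the animal carried the mutation and not the glomerulus alone. Glomeruli were dissociated and GFP positive cells were taken by FACS, each cell type by a reporter of its own, such as *Meis1-GFP* for mesangial cells and *Tie2-GFP* for endothelial cells. Each reporter is a transgene carried by mutants and controls of that cell type alike, and what was profiled is whatever cells its promoter labelled. The genotype field of the sample records gives all controls as wild type, whereas the titles call the mesangial ones only controls and their columns in the table are marked +:-, unlike the +/+ of the other controls. *Cd2ap* itself was not called lower in any cell type, with log2 differences, mutant minus wild type, of -0.31 in mesangial cells, -0.23 in podocytes and 0.18 in endothelial cells (limma, adjusted p = 0.151, 0.504 and 0.336). Where its probes lie relative to the deleted part is not given in the sources used here, so the genotype of each array, and the direction of every difference below, rests on the label. Circulating steroid was not measured in the data used here.

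In the absence of hormone the glucocorticoid receptor is held in the cytoplasm by heat shock protein chaperones. When cortisol, or corticosterone in mice, binds, the receptor moves to the nucleus, where it raises the transcription of genes such as *Fkbp5* and *Tsc22d3* by binding DNA at glucocorticoid response elements and lowers that of many inflammatory genes. The receptor also represses its own gene in many cell types, and *Fkbp5* encodes a co-chaperone that lowers the affinity of the receptor for hormone. In the kidney, glucocorticoids are the standard treatment of nephrotic syndrome, and podocytes, mesangial cells and endothelial cells all express the receptor.

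The DNA just upstream of the starts shows which genes of the group have letters that match such an element close to the promoter. RefSeq windows on GRCm38.p6 were at hand for 8 of the 10 genes, 15 windows in all, and the 250 bases before each start were searched on both strands for AGAACANNNTGTTC, a core form of the palindromic response element, and for its hexamer AGAACA, which every match of the longer form contains. Windows of *Nr3c1* and *Zbtb16* were not among them. The long form occurred in 10 of 32851 windows of all genes, or 0.0304%, and in 1 of the 15 windows, upstream of a start of *Sgk1*. That window is printed because it is the only match, at chr10:21993640-21993889 on the plus strand, with matches to the long form and the hexamer in capitals. The palindrome begins 189 bases before the start.
Sgk1: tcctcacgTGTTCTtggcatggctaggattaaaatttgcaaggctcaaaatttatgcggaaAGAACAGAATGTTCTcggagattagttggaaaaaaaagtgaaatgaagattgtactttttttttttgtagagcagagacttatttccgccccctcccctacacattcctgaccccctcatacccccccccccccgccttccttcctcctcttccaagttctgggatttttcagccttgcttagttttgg
The hexamer occurred in 16.1% of all windows and in 4 of the 15, among them 1 of 3 starts of *Tsc22d3*, at chrX:140600523-140600772 on the minus strand. It is shown with the hexamer, here on the opposite strand, in capitals.
Tsc22d3: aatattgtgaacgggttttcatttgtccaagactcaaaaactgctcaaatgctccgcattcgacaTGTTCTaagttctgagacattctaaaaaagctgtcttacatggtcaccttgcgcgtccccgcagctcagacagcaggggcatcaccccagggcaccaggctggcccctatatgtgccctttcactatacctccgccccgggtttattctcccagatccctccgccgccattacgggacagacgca
*Fkbp5*, which like *Zbtb16* passed the screen in all 3 cell types (below), had neither form in its window at chr17:28486150-28486399 on the minus strand, which is printed for that contrast.
Fkbp5: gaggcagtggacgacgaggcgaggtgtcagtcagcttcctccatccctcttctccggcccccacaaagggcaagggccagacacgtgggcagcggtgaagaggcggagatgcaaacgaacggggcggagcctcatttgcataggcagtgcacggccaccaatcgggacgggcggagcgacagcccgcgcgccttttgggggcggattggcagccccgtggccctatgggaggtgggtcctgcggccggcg
The response elements described for *Fkbp5* lie in its introns, outside such a window. No match says only that these letters are not in these bases.

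*Mt1* and *Mt2*, neighbouring genes, are induced by zinc and other metals as well as by glucocorticoids. The core of the metal response element, searched as TGCACNC or TGCGCNC on both strands, was present in 21.4% of all windows and in 3 of the 15, those of *Mt1*, *Mt2* and *Ddit4*. *Mt2* had 3 matches, in capitals, at chr8:94172368-94172617 on the plus strand.
Mt2: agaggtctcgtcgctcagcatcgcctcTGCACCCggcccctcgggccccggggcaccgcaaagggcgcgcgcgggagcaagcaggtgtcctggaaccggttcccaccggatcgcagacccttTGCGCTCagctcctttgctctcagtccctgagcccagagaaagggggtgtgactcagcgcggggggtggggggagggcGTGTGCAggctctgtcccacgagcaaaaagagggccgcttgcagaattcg
For *Mt1* the 30 bases around its single match are shown, at chr8:94179054-94179083 on the plus strand.
Mt1: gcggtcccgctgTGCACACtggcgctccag

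Signals are RMA values on a linear scale, and a cluster was tested where any array of the comparison reached a signal of 100. Genotypes were compared within a cell type with limma on log2 signal. A gene is said to have risen or fallen where it passed a screen set after the study's workflow, a fold change over 1.5 with a p under 0.05, taken here as unadjusted, and the p adjusted over all clusters of the comparison (Benjamini-Hochberg) is given beside it. Signals of different genes come from different probes and are not compared with each other. Within each group the arrays carry the letters A, B and C after their columns, which is also how values are listed. In sorted bulk samples, fewer cells of a type and less RNA per cell cannot be told apart.

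Summed signals of the marker lists were highest in the cell type they name, at 12895 to 16661 for 10 podocyte markers in podocytes, 16192 to 18842 for 10 endothelial markers in endothelial cells and 7842 to 10194 for 9 mesangial markers in mesangial cells. The lists were not confined to those cells, since in wild type podocytes all 9 mesangial and 9 of 10 endothelial markers also reached 100. Mesangial sums in mesangial cells were 7842 to 8716 in mutants and 9367 to 10194 in controls, without overlap. By the screen 2 of 9 mesangial, 2 of 9 endothelial and 1 of 10 podocyte markers were lower there and none higher. Of all clusters 3.12% were lower and 2.08% higher in mesangial cells. Of 7 juxtaglomerular and smooth muscle markers 2 were higher and 1 lower. Endothelial sums in endothelial cells did not overlap either, at 18060 to 18842 in mutants and 16192 to 18009 in wild type. No endothelial marker passed the screen there, where 2.96% of all clusters were higher and 0.865% lower. Some arrays stood apart. In wild type mesangial array C the summed signal of 10 endothelial markers was 8008, against 2482 and 2863 in the other two, and that of 7 erythroid markers was 12338, against 1108 and 571. Its podocyte sum was 3927, and all 10 podocyte markers reached 100 there. The endothelial sum was lower in mutant than in wild type podocytes, at 2830, 1407 and 966 against 5127, 6087 and 4615, with 8 of 9 tested endothelial markers passing the screen as lower. Mesangial marker sums were lower there too (2558 to 4481 against 4599 to 5372, 4 of 9 lower by the screen), while those of juxtaglomerular and smooth muscle markers were higher (1584 to 3643 against 1332 to 1366, 2 of 6 higher). In podocytes 4.34% of all clusters were lower and 1.26% higher by the screen. Mutant podocyte array A was closest to wild type in the endothelial sum and in its erythroid sum of 9329, against 1284 and 446 in arrays B and C and 5292 to 7050 in wild type. It was furthest from wild type in the juxtaglomerular and smooth muscle sum, at 3643 against 2933 and 1584 in arrays B and C. Leukocyte sums were highest within their genotype and cell type in mutant mesangial array B (2392 against 867 and 810.5) and mutant endothelial array A (1542 against 1053 and 858). The same held for mutant podocyte array A (1214 against 800 and 811), wild type mesangial array C (1726 against 837 and 751) and wild type podocyte array B (1309 against 886 and 995). The part of these markers in the results below was not tested.

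**Figure D1:**
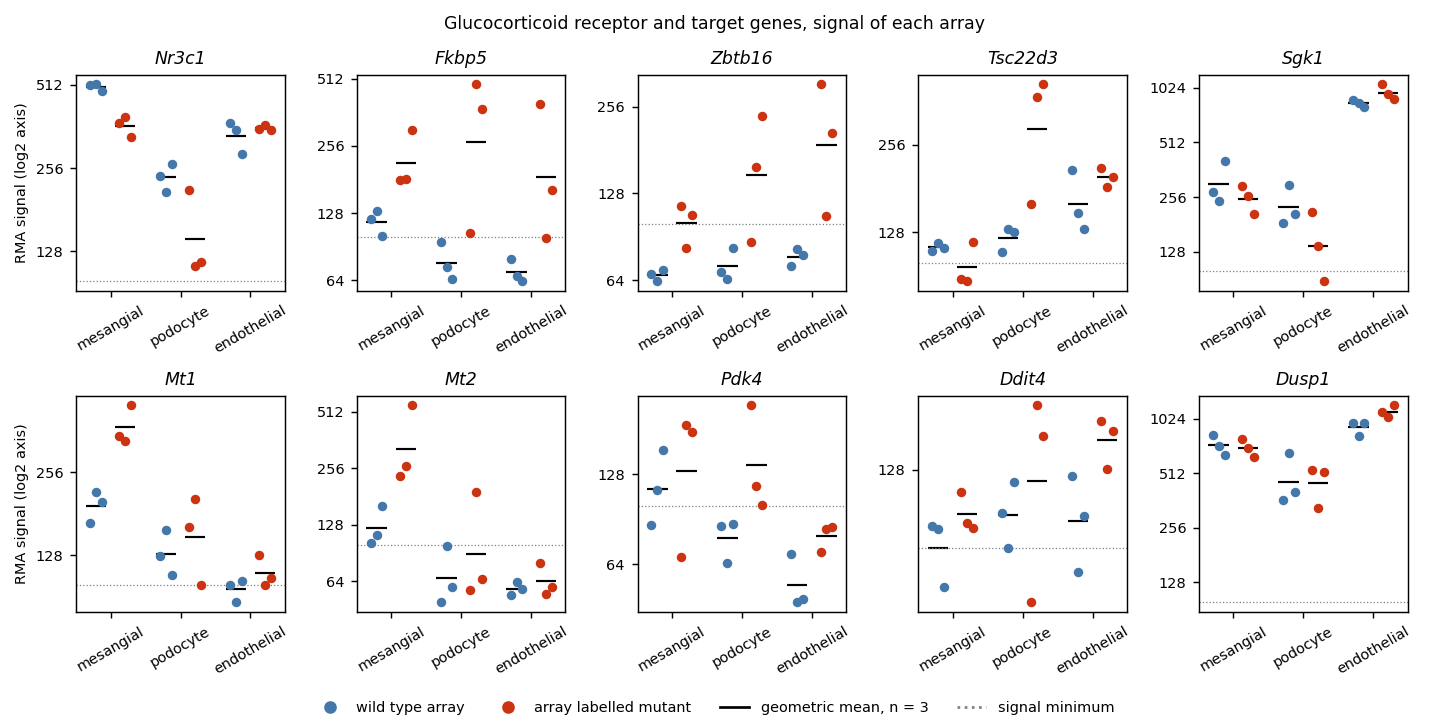
RMA signal of each of the 18 arrays for the 10 genes, by cell type, on a log2 axis that differs between panels; blue points are wild type and red points mutant arrays, black bars the geometric mean of 3, and the dotted line the minimum of 100. For *Fkbp5* and *Zbtb16* the mutant arrays lie above those of wild type in all 3 cell types without overlap, while *Nr3c1* was lower in mutant mesangial cells.

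*Nr3c1* (cluster 10458569), which encodes the receptor, was above 100 in all 18 arrays. In mesangial cells it gave 372, 393 and 330.4 in the mutants and 512, 515 and 485 in the controls. The groups did not overlap, and the log2 difference was -0.47 (SE 0.094, adjusted p = 0.0545), a fold of 1.38 that missed the fold criterion of the screen. Podocytes had the lowest receptor signals, 213, 113 and 117 in mutants against 239, 210.4 and 265 in wild type. Here the receptor fell, by 0.75 on the log2 scale (SE 0.25, adjusted p = 0.256), although mutant array A lay within the wild type range. The call was lost without mutant array B, mutant array C or wild type array C (log2 differences -0.59, -0.61 and -0.67). Without mutant array A the difference was -1.04 (adjusted p = 0.0290), the only 1 of 6 such fits with an adjusted p under 0.05. Endothelial cells showed 355, 367 and 352 in mutants and 372, 352 and 289 in wild type, which overlap, with a log2 difference of 0.09 and a 95% confidence interval from -0.17 to 0.35.

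*Fkbp5* (cluster 10449452) encodes the FK506 binding protein that acts as a co-chaperone of the receptor and is itself induced by it. Its mesangial signals were 179, 182 and 300.3 in mutants and 119.9, 131 and 101 in controls. In podocytes they were 104, 483 and 373 against 95.2, 73.7 and 64.5, and in endothelial cells 395, 99.4 and 163 against 79.3, 66.9 and 63.7. No mutant array overlapped the wild type arrays of its cell type, and all wild type podocyte and endothelial arrays were under 100. *Fkbp5* rose by 0.87 on the log2 scale in mesangial cells (SE 0.22, adjusted p = 0.0869), by 1.79 in podocytes (SE 0.52, adjusted p = 0.213) and by 1.41 in endothelial cells (SE 0.43, adjusted p = 0.163). In podocytes and endothelial cells it reached the signal minimum through mutant arrays alone, so these sizes are set against signals under 100 and this way of admission favours a difference. The mutant arrays varied widely, with the highest 4.64 times the lowest in podocytes and 3.97 times in endothelial cells, against 1.48 and 1.25 times in wild type. *Fkbp5* passed the screen in each fit that left out 1 array, with a range of 0.63 to 1.00 in mesangial cells, 1.36 to 2.47 in podocytes and 0.87 to 1.86 in endothelial cells. In a single fit of all 18 arrays the mesangial difference did not pass (adjusted p = 0.395).

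*Zbtb16* (cluster 10593225), the zinc finger transcription factor PLZF, is strongly induced by glucocorticoids in many tissues. It was under 100 in all 9 wild type arrays, between 63.8 and 83.0. The mutants gave 116, 82.6 and 108 in mesangial cells, 87.2, 159 and 237 in podocytes and 306, 107 and 207 in endothelial cells. The genotypes again did not overlap in any cell type, and podocyte array A and endothelial array B lay closest to wild type. *Zbtb16* rose by 0.60 in mesangial cells (SE 0.14, adjusted p = 0.0728), 1.05 in podocytes (SE 0.33, adjusted p = 0.233) and 1.29 in endothelial cells (SE 0.33, adjusted p = 0.113) on the log2 scale. It was admitted to all 3 tests by mutant arrays alone, against wild type signals under the minimum, so its differences are a description. The mesangial difference is a fold of 1.51 and was just past the criterion: it did not pass with array medians subtracted (0.58), in the fit of all 18 arrays, or without mutant array A, mutant array C or wild type array B (0.50, 0.55 and 0.56). With the signal minimum required in all 3 arrays of a group, *Zbtb16* was not tested in mesangial cells or podocytes.

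*Tsc22d3* (cluster 10606989) encodes the glucocorticoid-induced leucine zipper GILZ, a mediator of the anti-inflammatory action of the hormone. In podocytes the mutants gave 159.9, 374.97 and 414 and wild type 109, 131 and 128, without overlap. It rose there by 1.25 on the log2 scale (SE 0.34, adjusted p = 0.205), a fold of 2.38. Mesangial signals were 88.5, 87.0 and 118 in mutants against 110.4, 118 and 113, a log2 difference of -0.23 (95% confidence interval -0.55 to 0.09). Endothelial signals were 213, 183 and 199 against 209, 149 and 131, a log2 difference of 0.31 (-0.09 to 0.70). Both of these comparisons overlapped and did not pass the screen.

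*Sgk1* (cluster 10362073), the serum and glucocorticoid regulated kinase that controls sodium transport, has the letter match printed above in 1 of its 6 windows. Receptor binding there was not tested. Its podocyte signals were 213, 138 and 88.7 in mutants and 184, 299 and 206 in wild type. The log2 difference of -0.71 (95% confidence interval -1.46 to 0.05, adjusted p = 0.373) did not pass the screen, although it passed without mutant array A (-1.02, adjusted p = 0.0978). In endothelial cells *Sgk1* read 1066, 939 and 885 in mutants against 874, 842 and 805, without overlap but with a log2 difference of only 0.19 (SE 0.10). Mesangial signals of 294, 259.9 and 207 against 272, 245 and 406 overlapped, with a log2 difference of -0.26 (-0.77 to 0.26).

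The metallothioneins *Mt1* (cluster 10574027) and *Mt2* (cluster 10574023) encode small cysteine-rich proteins that bind zinc and copper. Mutant mesangial *Mt1* signals were 348, 332 and 448 and control signals 168, 217 and 199.8. For *Mt2* they were 233, 264 and 553 against 102, 113 and 161. Neither gene overlapped. *Mt1* rose by 0.94 on the log2 scale (SE 0.15, adjusted p = 0.0305), the one difference between genotypes among the 10 genes with an adjusted p under 0.05, and *Mt2* by 1.40 (SE 0.34, adjusted p = 0.0836). Probe sequences were not used here, so whether these similar transcripts share probes was not tested.

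In the other cell types neither metallothionein passed the screen. *Mt1* in podocytes was 162, 204 and 100.1 in mutants against 127, 158 and 109, a log2 difference of 0.20 (95% confidence interval -0.43 to 0.83). *Mt2* in podocytes was 57.5, 190.2 and 66.0 against 49.7, 99.0 and 59.5, with mutant array B the only array over 100 and a log2 difference of 0.44 (-0.64 to 1.51). In endothelial cells *Mt1* was 128, 99.6 and 106 against 100.1, 86.8 and 103, overlapping, and *Mt2* lay between 54.1 and 79.6 in all 6 arrays and was not tested.

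*Pdk4* (cluster 10543017), the kinase that shuts off pyruvate dehydrogenase and so spares glucose, rose in podocytes. The mutants gave 217, 117 and 101 and wild type 85.8, 64.6 and 87.2, a log2 difference of 0.80 (SE 0.29, adjusted p = 0.283). No wild type podocyte array reached 100. In contrast to *Fkbp5*, *Zbtb16* and *Tsc22d3*, mutant array A was the highest here. Without it the difference was 0.47 and did not pass, nor did it without wild type array B (0.66). Mesangial signals were 67.8, 187 and 177 in mutants against 86.5, 113 and 154, with mutant array A the lowest of the 6 and a log2 difference of 0.19 (95% confidence interval -0.79 to 1.18). In endothelial cells it stayed between 47.9 and 85.5 and was not tested.

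*Ddit4* (cluster 10369290), or REDD1, which restrains mTORC1 under stress, did not pass the screen in any cell type. In endothelial cells it was 149, 128 and 145 in mutants and 126, 92.5 and 110.4 in wild type, without overlap, with a log2 difference of 0.37 (SE 0.13, adjusted p = 0.200). Podocytes gave 84.3, 157 and 143 against 112, 99.8 and 123, and mesangial cells 119, 108 and 107 against 107, 106 and 88.2. Both overlapped, and the log2 difference was 0.15 in each.

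*Dusp1* (cluster 10449284) encodes the phosphatase MKP-1, which switches off p38 and JNK signalling. Its endothelial signals were 1113, 1051 and 1216 in mutants and 973, 829.7 and 973 in wild type, which do not overlap, and the log2 difference of 0.29 (SE 0.11, adjusted p = 0.216) was short of the fold criterion. Mesangial signals of 798, 704 and 628 against 829.9, 728 and 652 differed by -0.05 on the log2 scale (95% confidence interval -0.36 to 0.26). Podocyte signals of 538, 329 and 524 against 367, 665 and 402 differed by -0.03 (-0.67 to 0.62), and both pairs overlapped.

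**Figure D2:**
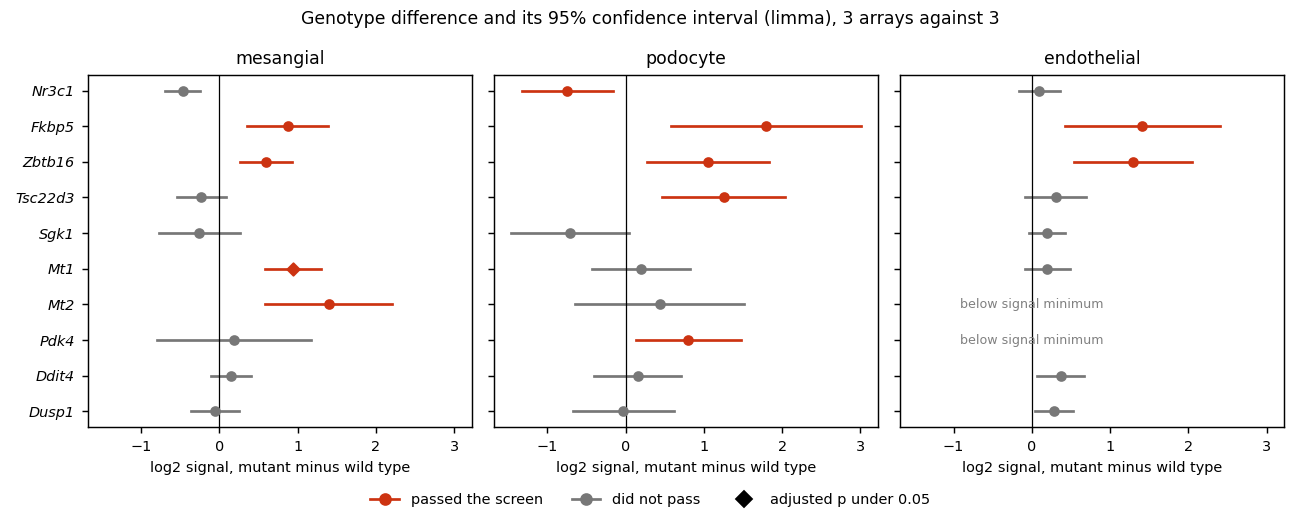
Log2 signal, mutant minus wild type, with its 95% confidence interval, for each gene in each cell type, 3 arrays against 3; red marks the genes that passed the screen and the diamond the one with an adjusted p under 0.05. *Fkbp5* and *Zbtb16* lie to the right of 0 in all 3 cell types, *Mt1* and *Mt2* pass in mesangial cells, and *Nr3c1* lies to the left of 0 in mesangial cells and podocytes.

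In mesangial cells 4 of the 10 genes rose, *Fkbp5*, *Zbtb16*, *Mt1* and *Mt2*, and none fell, while 2.08% of all 11457 clusters tested rose and 3.12% fell. At an adjusted p under 0.05 the count was 1 higher, *Mt1*, and 0 lower, where 1.25% and 1.68% of all clusters were called. At an unadjusted p under 0.05 the counts were 4 higher and 1 lower, *Nr3c1*, where 8.82% and 12.9% of all clusters were. Differences above 0 numbered 6 of 10, against 45.4% of all clusters. The same 4 were without overlap on the higher side (12.3% of all clusters) and *Nr3c1* on the lower side (16.3%). The median log2 difference was 0.17 over the 10 genes and -0.02 over all clusters. Leaving out wild type array C, which carried the markers of other cells, kept the number at 4, with *Mt2* at 1.59, *Mt1* at 0.97 (adjusted p = 0.0497), *Fkbp5* at 0.77 and *Zbtb16* at 0.62. That was the only 1 of 6 such fits in which *Mt1* kept an adjusted p under 0.05, and without mutant array B, which had the highest leukocyte sum, it was 1.03 (adjusted p = 0.0861, the highest of the 6). Of the 4 genes, *Zbtb16* was tested through mutant arrays alone.

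In podocytes 4 of the 10 rose, *Fkbp5*, *Tsc22d3*, *Zbtb16* and *Pdk4*, and *Nr3c1* fell, against 1.26% of 12113 clusters that rose and 4.34% that fell. Of these 5, *Fkbp5*, *Zbtb16* and *Pdk4*, or 3, had no wild type array at the signal minimum, so the count of genes that rose supports nothing beyond the values themselves. No gene of the 10 had an adjusted p under 0.05 with limma, against 4 higher and 1 lower at an unadjusted p under 0.05 (3.39% and 10.9% of all clusters), and in this cell type only 0.0495% of all clusters were higher and 0.00826% lower by that criterion. The number without overlap was 4 on the higher side (6.97% of all clusters) and 0 on the lower (14.3%). The median was 0.32 over the 10 genes and -0.04 over all clusters. Without mutant array A, *Fkbp5* differed by 2.47 and *Tsc22d3* by 1.69 (adjusted p = 0.00926 for both), *Zbtb16* by 1.44 (adjusted p = 0.0298) and *Nr3c1* by -1.04, and 3 genes rose and 2 fell. The number of all clusters that passed was then 1235, against 679 with the array. That was the only 1 of 6 such fits in which any of *Fkbp5*, *Tsc22d3*, *Zbtb16* and *Nr3c1* had an adjusted p under 0.05. Their highest adjusted p over these limma fits was 0.5101, 0.52, 0.5674 and 0.5775.

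In endothelial cells 8 of the 10 could be tested, and *Fkbp5* and *Zbtb16* rose while none fell, against 2.96% and 0.865% of 11330 clusters. Both were tested through mutant arrays alone, with 0 of 3 wild type arrays at 100, so the count is a description. None of the 8 had an adjusted p under 0.05 (limma; 1.21% of all clusters were higher and 0.0794% lower), and 4, all higher, had an unadjusted p under 0.05 (13% of all clusters were higher and 5.47% lower by it), with *Ddit4* and *Dusp1* beside *Fkbp5* and *Zbtb16*. All 8 differences were above 0, as were 64.9% of all clusters, and 5 did not overlap on the higher side (17.7%) and 0 on the lower (7.34%). The median was 0.30, and 0.07 over all clusters. Subtracting array medians moved the latter to 0.14. Without mutant array A, which had the highest leukocyte sum of its group, *Fkbp5* differed by 0.87 (adjusted p = 0.213) and *Zbtb16* by 0.95 (adjusted p = 0.260). Both still passed the screen. Mutant array B, kept in that fit, had a leukocyte sum of 1053, against 740 to 909 in wild type.

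Whether the genotype difference varied between cell types was tested by the interaction in a single fit of all 18 arrays over 13523 clusters. Mesangial mutants were set against controls marked +:-, mutants of the other cell types against +/+ controls. In contrasts with mesangial cells, here and in the next paragraph, the cell type and the genotype of the controls therefore cannot be told apart. With limma no gene of the 10 reached an adjusted p under 0.05 in any of the 3 contrasts, against 2, 3 and 3 at an unadjusted p under 0.05 for podocytes minus mesangial cells, endothelial minus mesangial cells and endothelial cells minus podocytes, where 12.0%, 15.9% and 23.4% of all clusters were, both directions together. Of all clusters, 0.207%, 0.71% and 1.86% were higher at an adjusted p under 0.05 in these contrasts and 0.51%, 0.362% and 0.251% lower. The receptor came closest, with a genotype effect 0.84 higher on the log2 scale in endothelial cells than in podocytes (SE 0.26, adjusted p = 0.0825). *Tsc22d3* had an effect 1.48 higher in podocytes than in mesangial cells (SE 0.38, adjusted p = 0.102) and 0.95 lower in endothelial cells than in podocytes, given as -0.95 (adjusted p = 0.152). *Sgk1* was 0.90 higher in endothelial cells than in podocytes (adjusted p = 0.166). Without mutant podocyte array A, *Nr3c1*, *Sgk1* and *Tsc22d3* passed the adjusted threshold in the contrast of endothelial cells with podocytes, and *Tsc22d3* in that of podocytes with mesangial cells. In those fits 13.8% and 3.14% of all clusters passed as well, higher and lower together.

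For the metallothioneins the mesangial effect exceeded the endothelial one by 0.75 for *Mt1* and 1.27 for *Mt2*, written as -0.75 (adjusted p = 0.242) and -1.27 (adjusted p = 0.289) in the direction endothelial minus mesangial. *Mt2* was under 100 in all 6 endothelial arrays, so its value is set against an effect read under the minimum. The 95% confidence interval of the *Mt1* difference ran from -1.39 to -0.10. *Fkbp5* and *Zbtb16* had intervals that held 0 in all 3 contrasts, for *Fkbp5* for example from -1.84 to 1.08 for endothelial cells minus podocytes, so sizes that differ by more than the effect itself could not be told apart.

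**Figure D3:**
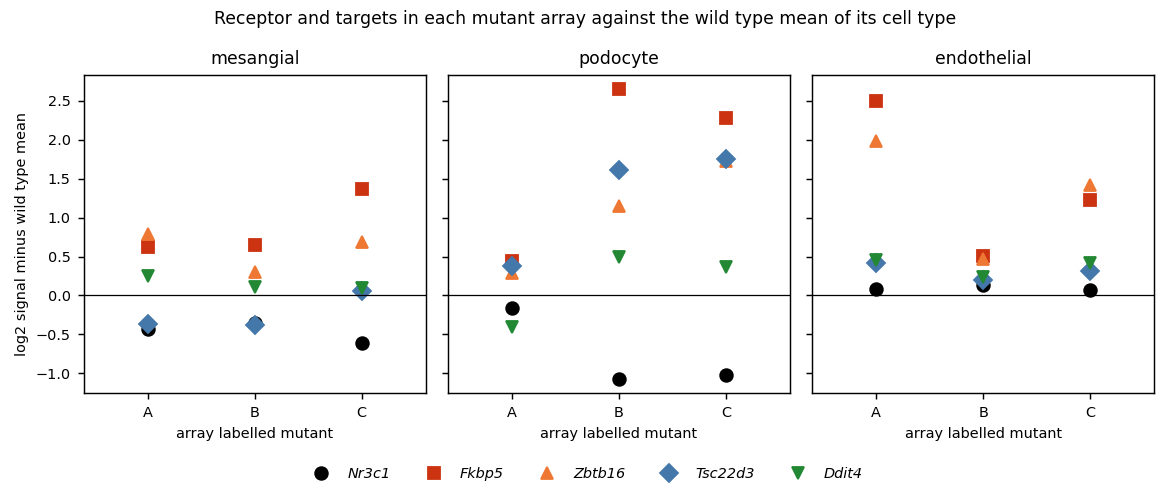
Log2 signal of each mutant array minus the mean of the 3 wild type arrays of its cell type, for the receptor gene and 4 targets. In podocyte arrays B and C *Nr3c1* lay at -1.07 and -1.02 and *Fkbp5* at 2.65 and 2.28, while array A was nearer to 0 for both genes.

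*Fkbp5*, *Zbtb16* and *Tsc22d3* were lowest in the same mutant array in podocytes and in endothelial cells, as was *Ddit4*, and *Mt2* at signals mostly under 100. *Mt1* and *Dusp1* were lowest in that same array in endothelial cells but not in podocytes, and *Sgk1* and *Pdk4* in neither cell type. Podocyte array A lay nearest to wild type for *Fkbp5* (0.44 above the wild type mean on the log2 scale), *Zbtb16* (0.28), *Tsc22d3* (0.38), *Nr3c1* (-0.16) and *Sgk1* (-0.08). Arrays B and C were at 2.65 and 2.28 for *Fkbp5*, at 1.15 and 1.73 for *Zbtb16*, at 1.61 and 1.76 for *Tsc22d3* and at -1.07 and -1.02 for *Nr3c1*. *Pdk4* ran the other way, with 1.47 in array A, 0.57 in B and 0.37 in C. In endothelial cells array A was the highest and array B the lowest for *Fkbp5* (2.503 and 0.51, with 1.22 in array C), for *Zbtb16* (1.98 and 0.47, with 1.42) and, over a narrower range, for *Tsc22d3* (0.41 and 0.19, with 0.31). In mesangial cells array C was highest for *Fkbp5* (1.36), *Mt1* (1.21) and *Mt2* (2.17) and lowest for *Nr3c1* (-0.61), but array A was highest for *Zbtb16* (0.80).

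The control arrays were also compared between cell types. Mesangial controls are those marked +:-, so in contrasts with mesangial cells the cell type and a *Cd2ap* allele difference cannot be told apart. *Zbtb16*, under 100 throughout, was not tested, and the other 9 were compared over 12537 clusters. The receptor gene was highest in mesangial cells (504 ± 16.1, SD, n = 3), then in endothelial cells (338 ± 43.5) and lowest in podocytes (238 ± 27.2), and each step differed beyond its spread by limma, with endothelial minus mesangial -0.59 (adjusted p = 0.00478), endothelial minus podocyte 0.50 (adjusted p = 0.00849) and podocyte minus mesangial -1.09 (adjusted p = 0.000140). *Fkbp5* was highest in mesangial cells (117 ± 15.2), with podocytes 0.60 lower (given as -0.60, adjusted p = 0.0198), a call that held in 2 of the 6 fits that left out an array and was lost in the fit of all 18 arrays (adjusted p = 0.3996), and podocytes (77.8 ± 15.8) and endothelial cells (69.9 ± 8.25) did not differ beyond their spread (-0.14, 95% confidence interval -0.50 to 0.22).

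*Mt1* fell into the order mesangial (195 ± 24.96), podocyte (131 ± 24.8) and endothelial (96.8 ± 8.80), and endothelial minus podocyte was -0.43 (adjusted p = 0.0495). *Mt2* was above 100 only in mesangial cells (125 ± 31.3). *Pdk4* too was highest in mesangial cells (118 ± 34.2), with podocytes (79.2 ± 12.64) not separated by the adjusted p from either of the other cell types and endothelial cells (55.4 ± 12.2) lower than mesangial cells by 1.07, or -1.07 (adjusted p = 0.00550), with every endothelial array under 100.

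By contrast *Sgk1* and *Dusp1* were highest in endothelial cells. *Sgk1* was 840.4 ± 34.9 there against 307 ± 86.4 in mesangial cells and 229.8 ± 60.8 in podocytes, log2 differences of 1.49 (adjusted p = 0.000592) and 1.90 (adjusted p = 0.000108). The mesangial and podocyte levels of *Sgk1* did not differ beyond their spread (-0.42, adjusted p = 0.174). *Dusp1* was 925 ± 82.9 in endothelial cells, 736 ± 89.5 in mesangial cells and 478 ± 162 in podocytes, and the endothelial signal exceeded that of podocytes by 1.00 (adjusted p = 0.00366) but was not separated from that of mesangial cells (0.33, adjusted p = 0.247). *Tsc22d3* was 163 ± 40.9 in endothelial cells and 114 ± 3.64 in mesangial cells, a difference of 0.49 (adjusted p = 0.0395), with podocytes (123 ± 11.7) between them. This call held in 1 of the 6 fits that left out an array and was lost without a signal minimum, in the fit of all 18 arrays and with array medians subtracted (adjusted p = 0.0691, 0.192 and 0.0607). *Ddit4* lay at 110 ± 16.6, 112 ± 11.7 and 100.4 ± 10.6 in endothelial cells, podocytes and mesangial cells, and none of its differences passed.

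At an adjusted p under 0.05, podocytes had 5 of the 9 genes lower and none higher than mesangial cells (17% and 11% of all clusters), where the unadjusted counts were 6 and 0 (40.2% of all clusters, both directions together), and without wild type podocyte array C, podocyte array A or mesangial array B the first count dropped to 1, 2 and 2. Endothelial cells had 5 lower and 2 higher than mesangial cells (16.1% and 15.9%), and 3 higher and 1 lower than podocytes (21.9% and 16.9%). Of the podocyte count, *Fkbp5* and *Mt2* were under 100 in all 3 podocyte arrays. The 5 genes higher in mesangial cells than in endothelial cells were *Nr3c1*, *Fkbp5*, *Mt1*, *Mt2* and *Pdk4*, of which *Fkbp5*, *Mt2* and *Pdk4* were under 100 in all 3 endothelial arrays. Admission by the mesangial arrays in this way favours a difference, so these counts are a description. The number was 5 in each fit that left out 1 array, mesangial array C with its endothelial and erythroid signal included. The single gene lower in endothelial cells than podocytes, *Mt1*, lost its call without any one of the 3 endothelial arrays and without podocyte array A or B.

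Genes around the receptor were read from lists of its known partners. Of 10 chaperones and co-chaperones that hold the receptor, *Fkbp4* fell in mesangial cells, with 176, 202 and 202 in mutants and 313, 331 and 246 in controls, a log2 difference of -0.61 (SE 0.13, adjusted p = 0.0657). *Fkbp4*, or FKBP52, is the co-chaperone that competes with the *Fkbp5* product and favours hormone binding. No other gene of this list passed the screen in any cell type, where 3.12% of all clusters fell in mesangial cells. At an unadjusted p under 0.05 the counts were 3 lower in mesangial cells, against 12.9% of all clusters, and none in the others. The call for *Fkbp4* was lost on a further quantile normalization (-0.54) and without mutant array A (-0.54), wild type array A (-0.57) or wild type array B (-0.52). Medians of this list were -0.16 in mesangial cells, -0.17 in podocytes and -0.03 in endothelial cells.

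The coactivators and corepressors of the receptor gave no gene of 10 past the screen in any cell type with limma. Of all clusters 2.08% rose and 3.12% fell in mesangial cells, 1.26% and 4.34% in podocytes and 2.96% and 0.865% in endothelial cells. At an unadjusted p under 0.05 this list had 1 higher and 1 lower in mesangial cells, 2 lower in podocytes and 2 higher in endothelial cells. The shares of all clusters were 8.82% and 12.9%, 10.9% and 13%. Of 7 genes that handle or sense the steroid, *Nr3c2*, the mineralocorticoid receptor, *Hsd11b1*, which regenerates active hormone, and *Hsd11b2*, which inactivates it, were under 100 in all 18 arrays. *Abcb1a*, a P-glycoprotein gene whose product exports glucocorticoids, rose in mesangial cells from 488, 408 and 325 in controls to 1064, 1177 and 1313 in mutants, a log2 difference of 1.56 (SE 0.16, adjusted p = 0.0102). *H6pd*, which supplies NADPH to the enzyme encoded by *Hsd11b1*, rose there from 223, 229 and 160.3 to 311, 362 and 368.5, a log2 difference of 0.78 (SE 0.16, adjusted p = 0.0557). In both genes every mutant array exceeded every control. They were the only 2 of the list that could be tested in mesangial cells, where 2.08% of all clusters rose. None of the 3 tested in podocytes passed the screen, nor did the 1 tested in endothelial cells (1.26% and 2.96% of all clusters rose).

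Of 30 further genes known to be induced by glucocorticoids, 20 could be tested in mesangial cells and 19 in each of the other cell types. In mesangial cells *Errfi1*, a feedback inhibitor of the EGF receptor, was the only one that rose, with 1216, 1032 and 881 in mutants against 176, 209 and 243, a log2 difference of 2.32 (SE 0.16, adjusted p = 0.00299). None fell, and at an unadjusted p under 0.05 the counts were 5 higher and 2 lower, where 8.82% and 12.9% of all clusters were, and 2.08% and 3.12% passed the screen. The list had a median of 0.06 with 10 of 20 above 0. Podocytes had 3 that rose, *Nfkbia*, *Per1* and *Sult1a1*, and 1 that fell, *Rgs2*, against 1.26% and 4.34% of all clusters. *Sult1a1* was tested through mutant arrays alone. The podocyte counts at an unadjusted p under 0.05 were 4 higher and 1 lower, where 3.39% and 10.9% of all clusters were. *Nfkbia*, which encodes the NF-kappaB inhibitor, gave 214, 209 and 243 in mutants and 118, 139 and 123 in wild type (log2 difference 0.81, SE 0.13, adjusted p = 0.118). *Rgs2*, a brake on G protein signalling, gave 632, 587 and 322 against 1196, 1062 and 916 (-1.10, SE 0.26, adjusted p = 0.167).

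Endothelial cells also had 3 that rose, *Cdkn1a*, *Glul* and *Per1*, against 2.96% of all clusters, and 10 were higher and 0 lower at an unadjusted p under 0.05, against 13% and 5.47% of all clusters. *Cdkn1a*, the cell cycle inhibitor p21, gave 676, 688 and 526 in mutants against 335, 281 and 286 (log2 difference 1.06, SE 0.13, adjusted p = 0.0105). *Glul*, glutamine synthetase, gave 811, 959.6 and 1034 against 656, 572 and 585 (0.62, SE 0.12, adjusted p = 0.0524). The clock gene *Per1* gave 265, 158 and 144 against 136, 95.4 and 118 (0.66, SE 0.24, adjusted p = 0.209) and was lost without mutant array A (0.38), wild type array B (0.52) or wild type array C (0.68), in the fit of all 18 arrays and on a further quantile normalization (0.57). *Glul* was lost without mutant array C (0.55). In this cell type 18 of the 19 had a difference above 0, where 64.9% of all clusters did, and the list had a median of 0.41, against 0.07 over all clusters. The podocyte list had 15 of 19 above 0 and a median of 0.25, against 43.8% and -0.04 over all clusters.

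**Figure D4:**
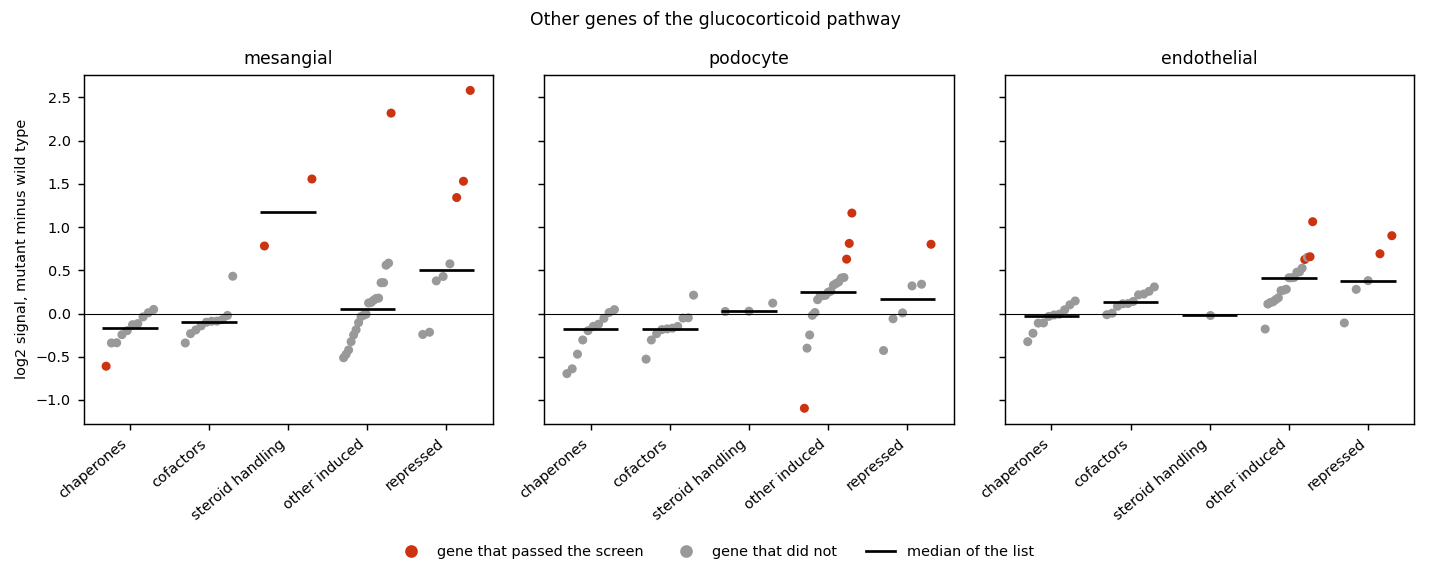
Log2 signal, mutant minus wild type, of each tested gene of 5 lists around the receptor, with those that passed the screen in red and the median of each list as a bar. The other induced genes lie mostly above 0 in endothelial cells, with 18 of 19, and on both sides in mesangial cells, with 10 of 20 above.

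Of 15 inflammatory genes that the receptor is known to repress, few could be tested, 8 in mesangial cells, 6 in podocytes and 5 in endothelial cells. The number that rose was 3, 1 and 2, against 2.08%, 1.26% and 2.96% of all clusters, and none fell or had an unadjusted p under 0.05 on the lower side. Their medians were 0.50, 0.16 and 0.38, against -0.02, -0.04 and 0.07 over all clusters. In mesangial cells those that rose included *Ptgs2*, the inducible cyclooxygenase, with 337, 526 and 247 in mutants against 57.0, 62.7 and 57.4 (log2 difference 2.58, SE 0.26, adjusted p = 0.00843), and *Ccl2*, a monocyte chemokine, with 174, 163 and 147 against 79.6, 56.2 and 57.4 (1.34, SE 0.15, adjusted p = 0.0134). The other was *Cxcl10*, an interferon-induced chemokine, with 633, 314 and 807 against 278, 134 and 179 (1.53, SE 0.40, adjusted p = 0.0949). *Ptgs2* and *Ccl2* were tested through mutant arrays alone. *Cxcl1*, a neutrophil chemokine, was the one that rose in podocytes, by 0.80 on the log2 scale (adjusted p = 0.191).

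Over all 18 arrays the genes most like the receptor gene in log2 signal, among 9949 clusters with a single symbol that reached 100 in at least 3 arrays, were *Dnajc13* (Pearson r 0.976), *Rap2a* (0.973) and *Trip12* (0.957). For *Fkbp5* no gene came as close, and the nearest were *Cirbp* (0.805), *Thap3* (0.764) and *Fuca1* (0.755). The nearest to *Zbtb16* was *1190002H23Rik* (0.828), to *Tsc22d3* *Vwa1* (0.932), to *Sgk1* *Itsn2* (0.979), to *Mt1* *Col12a1* (0.944), to *Mt2* *Tnnt2* (0.924), to *Pdk4* *Emp3* (0.878), to *Ddit4* *Chd7* (0.890) and to *Dusp1* *Fem1c* (0.929). These 18 arrays fall into 6 groups, so levels by cell type and genotype enter the values, which carry no p.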

How the data were processed

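RNA of FACS purified glomerular cells was amplified for Affymetrix Mouse Gene 1.0 ST arrays, 3 per group. By the sample records the authors made gene-level RMA values with Expression Console, and the deposited table holds them as intensity values on a linear scale for 28856 transcript clusters. The other 18 columns, which hold the authors' log2 values centred on each cluster's median, were not used. The series record names Exon arrays and GeneBASE instead, so the origin rests on the table's header and the sample records. Columns name a group but not a sample, so arrays carry letters. The RNA-seq was not analysed here, and 1 reporter is not reported here.

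Log2 signals were compared in R 4.3.3 by limma 3.58.1 (lmFit, eBayes), within each cell type for genotype, over all 18 arrays for interactions and over the 9 wild type arrays for cell types. Clusters were tested where any array of the fit reached a signal of 100. The screen followed the study's workflow (p under 0.05, fold change over 1.5), with the p taken as unadjusted because no adjustment is stated, and Benjamini-Hochberg adjusted p-values over all tested clusters are given beside it. Cell types and interactions were called at an adjusted p under 0.05. Precision is limited by the 3 arrays of each group. The fit was run on simulated data in which only clusters well above the signal minimum were changed. That run does not cover genes with wild type signals under 100. Median signal per array was 62.8 to 71.6, and 9697 to 10097 clusters per array reached 100.

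The 10 genes and all lists were chosen with earlier results of these data known. Named from the other lists were genes that passed the screen without overlap, at most 3 per list, direction and cell type, and *Cd2ap*. A few that did not meet this rule (*Per1* and *Sult1a1* in podocytes, *Slc30a1*, *Slc39a10*, *Slc2a1*, *Nr3c2*, *Hsd11b1* and *Hsd11b2*) were named after their values were seen. Alternatives were other signal minima, a joint fit, trend and robust eBayes, array medians subtracted, a further quantile normalization, adjusted p, a stringent screen (over 2-fold, with a minimum signal of 500) and each array left out. The alternative of all clusters per gene did not apply, since each gene had 1. Group values are mean ± SD of linear signal.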

Additional observations from a re-analysis of the deposited data

How the results depend on the processing

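No paired analysis was possible because the table's columns carry no replicate number that matches the sample records. Among single genes, 506 of 592 values under the settings that kept all arrays kept their direction and their side of the threshold. With a further quantile normalization *Dusp1* in podocytes turned to 0.10 and *Nr3c1* in endothelial cells to -0.031, neither of which passed before. With an adjusted p under 0.05 and the same fold change, 1 gene rose in mesangial cells and 0 in podocytes and endothelial cells, 0 fell in podocytes, and 252, 7 and 128 clusters passed, against 595, 679 and 433 in the screen. Under the stringent screen, 1 gene rose in mesangial cells (*Mt2*) and 0 in the others, 0 fell in podocytes, and 60, 79 and 56 clusters passed. A joint fit of all 18 arrays gave 2 genes higher in mesangial cells and 2 lower in podocytes, and between wild type cell types 2 lower in podocytes than mesangial cells, 1 higher and 3 lower in endothelial than mesangial cells and 0 lower in endothelial cells than podocytes. With the minimum required in all 3 arrays of a group, 1 gene rose in endothelial cells, *Fkbp5* not being tested, and *Zbtb16* was not tested in mesangial cells or podocytes. Without a minimum, 3 genes were lower in wild type podocytes than mesangial cells, 1 higher in endothelial than mesangial cells and 0 lower in endothelial cells than podocytes. With array medians subtracted, 1 gene was higher in endothelial than mesangial cells and 0 lower in endothelial cells than podocytes, and the interaction of endothelial cells with podocytes gave 1 higher gene and 970 clusters and that with mesangial cells 262. A further quantile normalization gave 78 clusters for endothelial cells minus podocytes. Shares of all clusters are not given here for the joint fit, the changed signal minima or the wild type contrasts, so those gene counts are a description. The cause of these shifts was not tested.

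With each array left out in turn, the number that rose was 3 to 4 in mesangial cells, 3 to 4 in podocytes and 2 in endothelial cells. In podocytes 0 to 2 fell. Of all clusters, higher and lower together, 539 to 662 passed in mesangial cells, 575 to 1235 in podocytes and 367 to 554 in endothelial cells. Interaction counts moved as well, from 44 to 423 clusters (podocytes minus mesangial cells, 0 to 1 gene higher), 85 to 177 (endothelial minus mesangial) and 30 to 1865 (endothelial minus podocytes, 0 to 2 genes higher and 0 to 1 lower), the highest of the first and last without mutant podocyte array A. Between wild type cell types the ranges were 1 to 4 genes lower in podocytes than mesangial cells, 1 to 2 higher in endothelial than mesangial cells and 0 to 1 lower in endothelial cells than podocytes. The clusters called in these contrasts, higher and lower together, were 2533 to 3233, 2999 to 3664 and 4000 to 4420. Directions turned in differences that did not pass: *Pdk4* (-0.067 to 0.67) and *Dusp1* (-0.14 to 0.037) in mesangial cells, *Mt1* (-0.026 to 0.49), *Ddit4* (-0.019 to 0.43) and *Dusp1* (-0.19 to 0.24) in podocytes and *Nr3c1* in endothelial cells (-0.015 to 0.17). *Pdk4* in mesangial cells passed the screen without mutant array A (0.67). Signals under 100 limit what can be read of *Fkbp5*, *Zbtb16*, *Mt2* and *Pdk4*.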

Other observations

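*Pdk4* and *Cpt1a* are also targets of the fatty acid sensing PPAR receptors, and 12 genes of fatty acid use were read beside the glucocorticoid targets. In endothelial cells 7 could be tested, 3 rose and all 7 had a difference above 0, where 2.96% of all clusters rose and 64.9% were above 0. *Plin2*, which coats lipid droplets, gave 585, 353 and 486 in mutants against 257, 228 and 227 (log2 difference 0.97, SE 0.18, adjusted p = 0.0475). *Cpt1a*, which admits long chain fatty acids to mitochondria, gave 369.1, 391 and 379.9 against 219, 242 and 181 (0.84, SE 0.12, adjusted p = 0.0182). *Ucp2*, a mitochondrial carrier, gave 395, 351 and 393 against 238, 203 and 252 (0.72, SE 0.11, adjusted p = 0.0225). In mesangial cells *Ucp2* instead fell, with 95.9, 126 and 108 against 185, 187 and 221 (-0.85, SE 0.13, adjusted p = 0.0281), the only one of 9 tested to pass, where 2.08% of all clusters rose and 3.12% fell. In podocytes none of 8 passed with limma (1.26% and 4.34% of all clusters), and none had an unadjusted p under 0.05 (3.39% and 10.9%).

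Genes of the metal response other than *Mt1* and *Mt2* were read in mesangial cells, where 5 of the list of 8 were tested with limma. None rose and 1 had a difference above 0, where 2.08% of all clusters rose and 45.4% were above 0. Only *Slc39a10*, a zinc importer, fell, by 0.69 on the log2 scale (adjusted p = 0.173), where 3.12% of all clusters fell. The zinc exporter *Slc30a1*, a target of the metal responsive factor, had a log2 difference of -0.32 (adjusted p = 0.195), and 0 of the list were higher and 2 lower at an unadjusted p under 0.05 (8.82% and 12.9% of all clusters). The part of metals in the metallothionein values was not tested.

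Of 12 genes of the hypoxia response, 9, 10 and 9 could be tested in mesangial cells, podocytes and endothelial cells, and 1, 2 and 1 rose (2.08%, 1.26% and 2.96% of all clusters) while 0, 1 and 0 fell (3.12%, 4.34% and 0.865%). In mesangial cells *Slc2a1*, the glucose transporter GLUT1, had a log2 difference of -0.55 (adjusted p = 0.0472), short of the fold criterion. *Adm*, the vasodilator adrenomedullin, rose in mesangial cells (log2 difference 1.03, adjusted p = 0.0669) and in podocytes (0.69, adjusted p = 0.293), where the call was lost without mutant array A (0.71), mutant array C (0.45) or wild type array B (0.55). In podocytes *Ndrg1* rose as well (0.68, adjusted p = 0.195), though not without mutant array B (0.56), and *P4ha1*, a collagen prolyl hydroxylase subunit, fell by 0.73 on the log2 scale (adjusted p = 0.118). *Pfkfb3*, an activator of glycolysis, rose in endothelial cells, with 589.8, 340.4 and 342 in mutants against 232, 183 and 208 (0.99, SE 0.22, adjusted p = 0.0775).

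*Dusp1* is also an immediate early gene, which cells switch on within minutes of a stimulus, tissue dissociation among them, and 12 other such genes were read beside it. In mesangial cells 3 of 9 tested rose, *Ier3*, *Egr1* and *Egr2*, in podocytes 1 of 11, *Egr1*, and in endothelial cells 2 of 11, *Ier3* and *Egr1*, against 2.08%, 1.26% and 2.96% of all clusters, and none fell or was lower at an unadjusted p under 0.05. *Egr1*, a zinc finger transcription factor, gave 194, 181 and 138 in mutant mesangial cells against 101, 98.5 and 93.1 in controls (log2 difference 0.80, SE 0.14, adjusted p = 0.0396 with limma), a difference of 0.95 in podocytes (adjusted p = 0.143) and 0.69 in endothelial cells (adjusted p = 0.2004). The endothelial call of *Egr1* was lost without mutant array A (0.61), mutant array C (0.47) or wild type array C (0.66) and on a further quantile normalization (0.58), that of *Ier3* without mutant array A (0.53), and the mesangial call of *Egr2* without wild type array B (0.50). *Egr2* in mesangial cells and *Egr1* in podocytes were tested through mutant arrays alone. *Dusp1* itself did not pass in any cell type. The part of dissociation in these values was not tested.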
